A study of Mus musculus with 6 samples.

Results

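The potassium channel genes of the mouse were followed through RNA from sorted retinal cells of 6 newborn pups. Members were chosen by name: a symbol had to begin with Kcn and a further letter, and Kcnj8 was set aside by the rule. This gave 91 of the 19124 genes in the table. All animals were C57BL/6 pups of 7 days, all carried Rnf20p/p, and all had been given 75 µg of Z-4-HO-Tamoxifen daily from day 1 to day 4. The 3 Ctrl pups were Pdgf{beta}CreERT2neg and the 3 KO pups Pdgf{beta}CreERT2pos, so the groups differ by a tamoxifen-dependent recombinase, read here as the Pdgfb driver that is used to reach endothelium. Which other sorted cells it reached is not given. CD31+ cells of the digested retina were sorted, and each library came from another pup. Which exons of Rnf20 recombination removes is not given either. The series title places Rnf20, a ligase that ubiquitylates histone H2B, in the signals of sprouting vessels. The comparison below asks which potassium channel genes differ in RNA level between these sorted populations.

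Potassium channels let potassium leave or enter the cell down its gradient and so set the resting potential. Voltage-gated members open on depolarisation, calcium-activated members couple calcium to the membrane potential, inward rectifiers hold the potential near rest, and tandem-pore members carry a steady leak. Endothelial cells use inward rectifiers and calcium-activated channels to relax the vessel wall. In the retina, rods and cones keep a dark potassium current through voltage-gated channels, and Müller glia clear potassium through an inward rectifier. Auxiliary subunits carry no pore of their own and change the gating or traffic of the pore-forming subunits.

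Pore-forming members have a selectivity filter, the short loop that strips water from potassium. Its code was searched as ACNNTNGGNTANGGN, in frame and on the coding strand only (the reverse strand carries no code of the protein), in the longest complete coding sequence of each gene (GENCODE M21, GRCm38). It was found in 49 of 87 members with a coding sequence (56.3%) and in 69 of 21562 genes overall (0.32%), of which the 49 are part. The voltage-gated pore subunits held it in 29 of 37, the inward rectifiers in 12 of 14 and the tandem-pore channels in 6 of 11. The pore subunits grouped by symbol as calcium- or sodium-activated, Kcnma1 among them, held it in 2 of 8 (25.0%). None of the 13 voltage-gated auxiliary subunits and none of the 4 calcium-activated beta subunits held it. The stretches of 5 members that the results return to are printed with the filter code in capitals and flanking code in lower case, because all of them hold the searched code.
Kcnv2: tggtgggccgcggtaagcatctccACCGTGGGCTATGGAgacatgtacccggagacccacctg
Kcnq1: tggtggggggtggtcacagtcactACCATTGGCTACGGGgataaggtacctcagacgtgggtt
Kcnma1: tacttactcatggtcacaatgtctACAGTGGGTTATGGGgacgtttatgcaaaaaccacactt
Kcnk5: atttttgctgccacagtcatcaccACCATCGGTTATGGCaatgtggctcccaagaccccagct
Kcnk6: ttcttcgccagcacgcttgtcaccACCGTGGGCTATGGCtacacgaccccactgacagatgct
The capitals lie in coding exons at chr19:27333654-27333668 (plus strand) for Kcnv2, chr7:143191432-143191446 (plus) for Kcnq1 and chr14:23528413-23528427 (minus) for Kcnma1. In Kcnk5 and Kcnk6 an intron divides the capital letters. A match describes these letters only, and a member without them, such as a channel with another filter code, may still conduct potassium.

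Depth was 14581701 to 30692948 counts per library, of which the members took 0.122% to 0.129% in Ctrl and 0.0714% to 0.0855% in KO. Levels are given as CPM, the usual depth-scaled count, with TMM factors between libraries. They are not corrected for length, so levels are not set against each other between genes. Rnf20 itself stood at 47.9, 57.1 and 56.8 CPM in Ctrl 1, 2 and 3, against 39.1, 31.0 and 31.7 CPM in KO 1, 2 and 3. All KO libraries lay below all Ctrl libraries, but the log2 fold change of −0.67 (SE 0.235) did not pass (edgeR adjusted p = 0.101). Counts are given per entry and not per exon, so the deleted part is not seen on its own. The sort was checked against markers. All 15 endothelial markers were present in each library, with a summed level of 3502 to 5392 CPM in Ctrl, against 10939 to 15282 CPM in KO, and 11 of them passed the test as higher and 0 as lower in KO. RNA of photoreceptors was present as well: their 14 markers summed to 20692 to 35153 CPM in Ctrl, against 5383, 9682 and 22866 CPM in KO 1, 2 and 3, with 0 higher and 3 lower. Markers of inner retinal neurons summed to 2658 to 3104 CPM in Ctrl, against 940 to 1735 CPM in KO (15 listed, 13 tested, 0 higher, 3 lower). Microglial markers summed to 284 to 1848 CPM in Ctrl, against 259, 14363 and 2770 CPM in KO 1, 2 and 3 (14 tested, 0 called). Of erythroid and platelet markers 5 of 8 tested were higher and 0 lower, of retinal ganglion cell markers 2 of 7 higher and 0 lower, and of pigment epithelium markers 0 of 5 were called. In such mixed bulk samples fewer cells of a type and less RNA per cell cannot be told apart.

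Of the 91 members 77 held enough counts to be tested, and the 14 others did not exceed 1.84 CPM or 47 counts in any library. In KO, 2 of the 77 were higher and 2 lower at an adjusted p under 0.05, by the quasi-likelihood test of edgeR fitted to all genes. That is 5.19% of the members, where 10.3% of all 16217 genes tested were called (5.85% higher and 4.44% lower). The called genes were Kcnv2 and Kcnma1, which were lower, and Kcnmb4 and the antisense RNA Kcnmb4os2, which were higher and overlap each other. The groups did not overlap for 24 members, 14 lower and 10 higher in KO, or 31.2% of those tested against 37.9% of all genes. The median log2 fold change was −0.21 over the members and 0.03 over all genes tested, and 42 of 77 estimates (54.5%) were below 0, against 49.0% of all genes. Without Ctrl 1 the member median was 0.023. An unadjusted p under 0.05 was reached by 16 members (20.8%), against 30.5% of all genes. Without Ctrl 1, Ctrl 2, Ctrl 3 or KO 2 edgeR called 0 members, and 0 (0.0%) of all genes in each of these fits, so the calls were lost across the whole table. At an unadjusted p under 0.05 were 15, 15, 12 and 12 members, and 24.2%, 20.5%, 20.8% and 21.6% of all genes. Without KO 1 it called 11, 6 higher and 5 lower (29.7% of all genes, 15.2% higher and 14.5% lower), and without KO 3 it called Kcnv2 and Kcnma1, both lower (5.23% of all genes, 3.02% higher and 2.22% lower). DESeq2 called 11, 7 higher and 4 lower (22.1% of all genes, 12.6% higher and 9.49% lower), as did the authors' deposited table. Limma-voom called 6, 3 in each direction (11.8% of all genes, 6.09% higher and 5.69% lower).

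**Figure D1:**
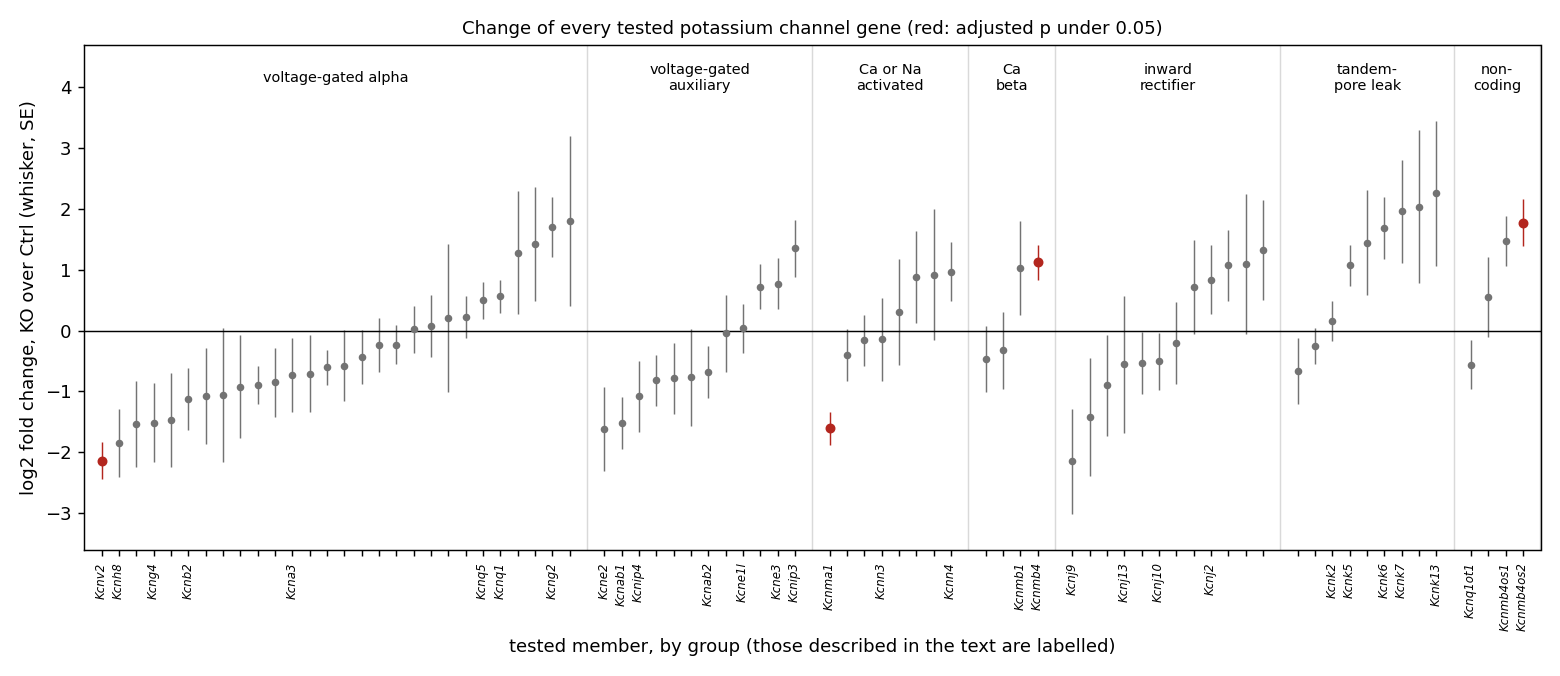
Log2 fold change of KO over Ctrl for each of the 77 tested members, in 7 groups by symbol. Whiskers give 1 standard error, and members described in the text are labelled. The 4 called members are in red: Kcnv2 and Kcnma1 lie below 0, Kcnmb4 and Kcnmb4os2 above it.

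A few genes held most of the difference in summed level. Over all members the sum came to 1268, 1209 and 1161 CPM in Ctrl 1, 2 and 3, against 839, 789 and 877 CPM in KO 1, 2 and 3 (mean 1213 ± 53.5 against 835 ± 44.3, SD, n = 3). Without Kcnv2 and Kcnma1, picked after their values were seen, the sums were 869, 772 and 747 CPM in Ctrl, against 749, 683 and 752 CPM in KO. The 2 groups then overlap, with means of 796 ± 64.5 and 728 ± 38.8 CPM. Reads in overlapping members may be counted more than once in these sums.

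**Figure D2:**
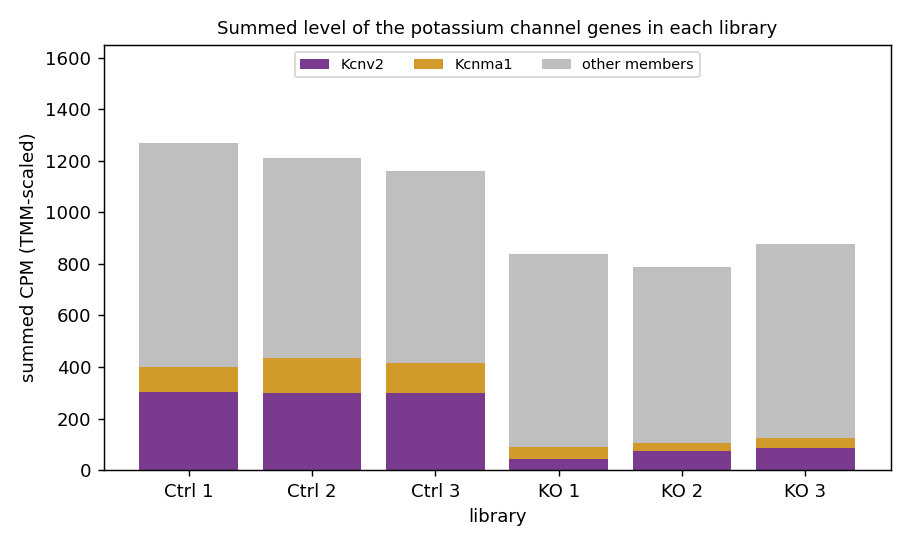
Bars give the summed CPM of the members in each library, split into Kcnv2, Kcnma1 and the other members. The grey part overlaps between the groups, at 747 to 869 CPM in Ctrl and 683 to 752 CPM in KO, while the coloured parts are smaller in all KO libraries than in any Ctrl library.

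Voltage-gated pore subunits formed the largest group, with 37 members, 28 of them tested. Kcnv2 was the one that passed (3.57%, against 10.3% of all genes). Of the 28 estimates 18 were below 0 (64.3%, median −0.59), against 49.0% of all genes. Kcnv2 encodes Kv8.2, a subunit that is silent alone and joins other voltage-gated subunits in rods and cones. Its entry (NM_183179, chromosome 19, 27322061 to 27337179, GRCm38.p6) held 303.3, 300.3 and 299.6 CPM in Ctrl 1, 2 and 3, against 43.2, 76.1 and 86.2 CPM in KO 1, 2 and 3. The Ctrl libraries lay within a few CPM of each other and every KO library lay far below them, on 1102 to 8876 counts per library. The mean dropped 4.39-fold, from 301 ± 1.96 to 68.5 ± 22.5 CPM (SD, n = 3), a log2 fold change of −2.14 (SE 0.303, edgeR adjusted p = 0.0211). Over 13 alternatives the adjusted p ran from 2.10e-07 to 0.126. It was 0.0801, 0.112, 0.107 and 0.0859 by edgeR without Ctrl 1, Ctrl 2, Ctrl 3 and KO 2, with log2 fold changes of −2.13, −2.14, −2.14 and −2.19.

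Photoreceptor markers moved with Kcnv2, though not in each library. On the log2 CPM scale they averaged 10.001, 9.45 and 9.67 in Ctrl 1, 2 and 3, against 7.46, 8.30 and 9.57 in KO 1, 2 and 3. KO 3 thus lay inside the Ctrl range for these markers, while its Kcnv2 level of 86.2 CPM was below that of each Ctrl library. Set against the marker mean of its own library, Kcnv2 stood at −1.76, −1.22 and −1.44 log2 units in Ctrl 1, 2 and 3, against −2.03, −2.05 and −3.14 in KO 1, 2 and 3. The groups did not overlap on that scale either, and the part of photoreceptor RNA in the Kcnv2 result was not tested beyond these values.

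Kcnb2, a pore-forming subunit of delayed rectifier channels, held 15.7, 23.9 and 17.9 CPM in Ctrl 1, 2 and 3, against 15.6, 3.66 and 7.10 CPM in KO 1, 2 and 3. KO 1 was close to the lowest Ctrl library and the other KO libraries lay further below. Its log2 fold change was −1.12 (SE 0.517, edgeR adjusted p = 0.184), and without KO 1 it was −1.77 and passed (adjusted p = 0.0141 by edgeR, range 0.0141 to 0.409 over 13 alternatives).

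**Figure D3:**
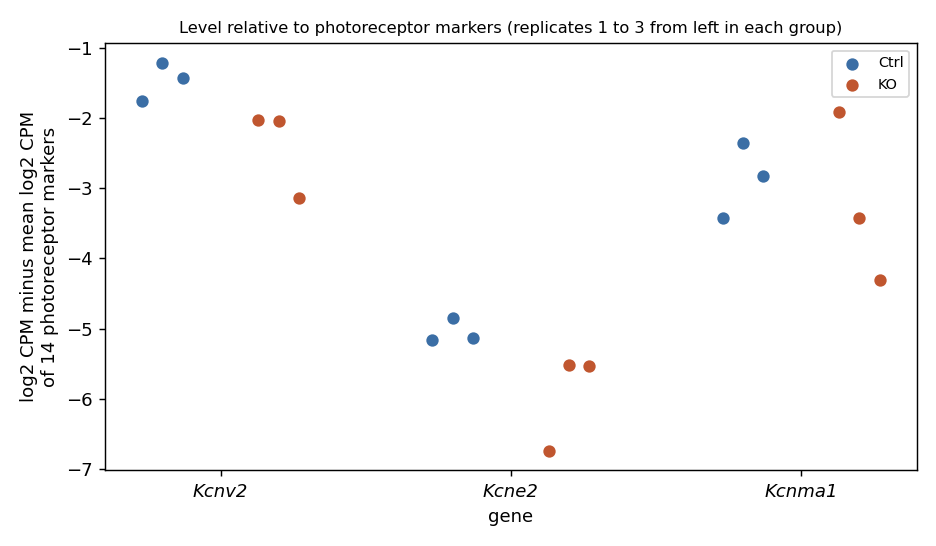
Points give log2 CPM of Kcnv2, Kcne2 and Kcnma1 in each library, less the mean log2 CPM of 14 photoreceptor markers there. Kcnv2 and Kcne2 lie lower in all 3 KO libraries on this scale, while the groups overlap for Kcnma1.

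Kcnq1, a slow voltage-gated channel of epithelia and heart, had 56.6, 85.0 and 73.4 CPM in Ctrl 1, 2 and 3, against 123, 113 and 82.0 CPM in KO 1, 2 and 3. KO 3 lay inside the Ctrl range, and the log2 fold change of 0.56 (SE 0.268) did not pass (edgeR adjusted p = 0.194). The gene hosts Kcnq1ot1, the antisense RNA that silences its imprinted neighbours, and reads of the 2 cannot be told apart by strand. Kcnq1ot1 stood at 15.9, 37.9 and 34.2 CPM in Ctrl, against 27.5, 15.4 and 16.6 CPM in KO (log2 fold change −0.56, SE 0.403, edgeR adjusted p = 0.377). With the reads of Kcnq1ot1 taken off, Kcnq1 was left with 40.7, 47.1 and 39.2 CPM in Ctrl 1, 2 and 3, against 95.8, 97.3 and 65.4 CPM in KO 1, 2 and 3. The remainder, not tested, does not overlap between groups. It holds only if the counts of Kcnq1 take in those of Kcnq1ot1, which is not given. Relative to endothelial markers the whole Kcnq1 entry was lower in KO, at −1.27, −1.26 and −1.49 log2 units in Ctrl and −1.88, −2.14 and −2.21 in KO. Those markers were higher in KO by a median log2 fold change of 1.45.

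Several other voltage-gated pore subunits stood below 6 CPM. Kcng2, a silent modifier of other voltage-gated channels, held 1.20, 0.743 and 0.912 CPM in Ctrl 1, 2 and 3, against 3.84, 2.75 and 2.74 CPM in KO 1, 2 and 3. All KO libraries were above all Ctrl libraries (log2 fold change 1.70, SE 0.496, edgeR adjusted p = 0.0632). Kcng4, of the same silent class, went the other way without passing, with 5.81, 3.88 and 4.24 CPM in Ctrl, against 0.470, 1.47 and 2.91 CPM in KO (−1.51, SE 0.649, edgeR adjusted p = 0.160). Kcnh8, of the ELK class, held 1.64, 1.86 and 3.06 CPM in Ctrl, against 0.706, 0.558 and 0.548 CPM in KO (−1.84, SE 0.562, edgeR adjusted p = 0.0715). Kcng2 and Kcnh8 passed with DESeq2 (adjusted p = 0.00905 and 0.02001, ranges 0.00905 to 0.232 and 0.02001 to 0.297 over 13 alternatives). Kcna3, a channel of lymphocytes and reactive microglia, stayed at or below 1.64 CPM in each library (−0.72, SE 0.610, edgeR adjusted p = 0.454).

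Among 13 auxiliary subunits of voltage-gated channels 12 were tested and 0 passed edgeR's test, against 10.3% of all genes. An unadjusted p under 0.05 was reached by 3 (25.0%, against 30.5% of all genes). DESeq2 called 2 and limma-voom 1, where they called 22.1% and 11.8% of all genes. Estimates below 0 numbered 8 of 12 (66.7%, median −0.72), against 49.0% of all genes. Kcnab1, a beta subunit of Kv1 channels, held 37.4, 20.4 and 22.7 CPM in Ctrl 1, 2 and 3, against 13.2, 5.02 and 9.94 CPM in KO 1, 2 and 3. The groups were apart (log2 fold change −1.52, SE 0.429), with an edgeR adjusted p = 0.0599. It passed with DESeq2 (adjusted p = 0.00711), with limma-voom (0.0491) and by edgeR without KO 1 (adjusted p = 0.0177), in a range of 0.00711 to 0.166 over 13 alternatives. Its span overlaps 2 other genes of the table, so its counts are uncertain. Kcnab2, its relative, had 57.6, 39.7 and 41.4 CPM in Ctrl, against 12.3, 37.1 and 37.5 CPM in KO. KO 1 alone stood far below the rest (−0.68, SE 0.430, edgeR adjusted p = 0.322).

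Kcne2, a small membrane subunit that pairs with several channels, held 28.7, 24.1 and 23.1 CPM in Ctrl 1, 2 and 3, against 1.57, 6.77 and 16.5 CPM in KO 1, 2 and 3. The KO libraries spread over more than 10 CPM and all lay below Ctrl (log2 fold change −1.61, SE 0.694, edgeR adjusted p = 0.161). The log2 fold change was −1.06 without KO 1 and −2.52 without KO 3. Kcne2 was lowest in KO 1 and highest in KO 3, as were the photoreceptor markers among the KO libraries. Relative to these markers Kcne2 was at −5.16, −4.85 and −5.13 log2 units in Ctrl and −6.74, −5.52 and −5.53 in KO, without overlap. Kcne3, a partner of Kcnq1 in epithelia, stood at 22.3, 16.5 and 12.4 CPM in Ctrl, against 47.0, 20.7 and 20.0 CPM in KO (0.77, SE 0.418, edgeR adjusted p = 0.248). Kcne1l, on the X chromosome, held 71.2, 39.5 and 42.9 CPM in Ctrl, against 30.2, 45.4 and 82.0 CPM in KO. Its groups overlap widely (0.036, SE 0.409, edgeR adjusted p = 0.963), and the sign of the estimate turned in 5 of 13 alternatives.

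The calcium-sensing proteins of Kv4 channels differed in the sign of their estimates. Kcnip3, also known as a transcriptional repressor, had 6.97, 2.52 and 4.37 CPM in Ctrl 1, 2 and 3, against 8.585, 16.3 and 10.7 CPM in KO 1, 2 and 3. The groups did not overlap (log2 fold change 1.35, SE 0.466, edgeR adjusted p = 0.0961). Kcnip4 held 13.0, 33.1 and 22.7 CPM in Ctrl, against 20.6, 5.86 and 6.07 CPM in KO, and KO 1 lay inside the Ctrl range (−1.08, SE 0.577, edgeR adjusted p = 0.242). Without KO 1 both passed edgeR's test, with adjusted p = 0.0353 for Kcnip3 (range 0.0279 to 0.277) and 0.0162 for Kcnip4 at a log2 fold change of −1.87 (range 0.0162 to 0.552).

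Of the 8 pore subunits grouped by symbol as calcium- or sodium-activated, Kcnu1 among them, 1 passed the test (12.5%, against 10.3% of all genes). The activation of each was not checked. Kcnma1 encodes the pore of the BK channel, which opens to both voltage and calcium and is used by smooth muscle and many retinal neurons. Its entry (NM_001253358, chromosome 14, 23292288 to 24005110, GRCm38.p6) held 95.7, 136 and 115 CPM in Ctrl 1, 2 and 3, against 46.4, 29.1 and 38.5 CPM in KO 1, 2 and 3. Every KO library lay below the lowest Ctrl library, on 730 to 3303 counts per library. The mean dropped 3.04-fold, from 116 ± 20.3 to 37.99 ± 8.68 CPM (SD, n = 3), a log2 fold change of −1.60 (SE 0.273, edgeR adjusted p = 0.0224). Without Ctrl 1, Ctrl 2, Ctrl 3 or KO 2 the edgeR adjusted p was 0.0801, 0.116, 0.107 and 0.0859, with log2 fold changes of −1.73, −1.47, −1.61 and −1.42 (range of the adjusted p 1.88e-05 to 0.126 over 13 alternatives).

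The summed level of inner retinal neuron markers was lower in every KO library as well, with 3 of 13 past the test. The mean log2 CPM of these markers was 3.79 to 3.91 in Ctrl, against 2.89, 3.44 and 3.85 in KO 1, 2 and 3. KO 3 thus lay inside the Ctrl range for this mean. On the log2 scale Kcnma1 exceeded the mean of these markers by 2.80, 3.29 and 2.94 units in Ctrl 1, 2 and 3, against by 2.65, 1.43 and 1.42 units in KO 1, 2 and 3. Relative to photoreceptor markers the groups overlapped, at −3.42, −2.36 and −2.82 units in Ctrl and −1.92, −3.43 and −4.30 in KO. Markers of mural cells, the other known home of BK channels in vessels, had 2 of 12 higher and 0 lower in KO. Their median log2 fold change was 1.18, and their mean log2 CPM was 2.94 to 3.96 in Ctrl, against 4.31 to 4.88 in KO. The sums overlapped between groups, at 293, 493 and 923 CPM in Ctrl, against 1189, 910 and 636 CPM in KO. Markers of retinal ganglion cells were also higher in KO, with 2 of 7 higher, 0 lower and a median of 1.29. They summed to 75.5 to 115 CPM in Ctrl, against 315 to 344 CPM in KO. The part of these cells in the Kcnma1 result was not tested beyond these values.

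Kcnn3 and Kcnn4, calcium-activated channels of endothelium, were scarce. Kcnn4 held 1.16, 1.20 and 2.02 CPM in Ctrl 1, 2 and 3, against 3.06, 3.07 and 2.40 CPM in KO 1, 2 and 3, with no overlap (log2 fold change 0.97, SE 0.487, edgeR adjusted p = 0.217). Kcnn3 had 3.55, 2.19 and 1.89 CPM in Ctrl, against 0.706, 1.91 and 4.32 CPM in KO. The KO libraries lay on both sides of Ctrl (−0.14, SE 0.683, edgeR adjusted p = 0.910), and the estimate was above 0 without Ctrl 1, KO 1 or KO 2 (0.18, 0.35 and 0.019).

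**Figure D4:**
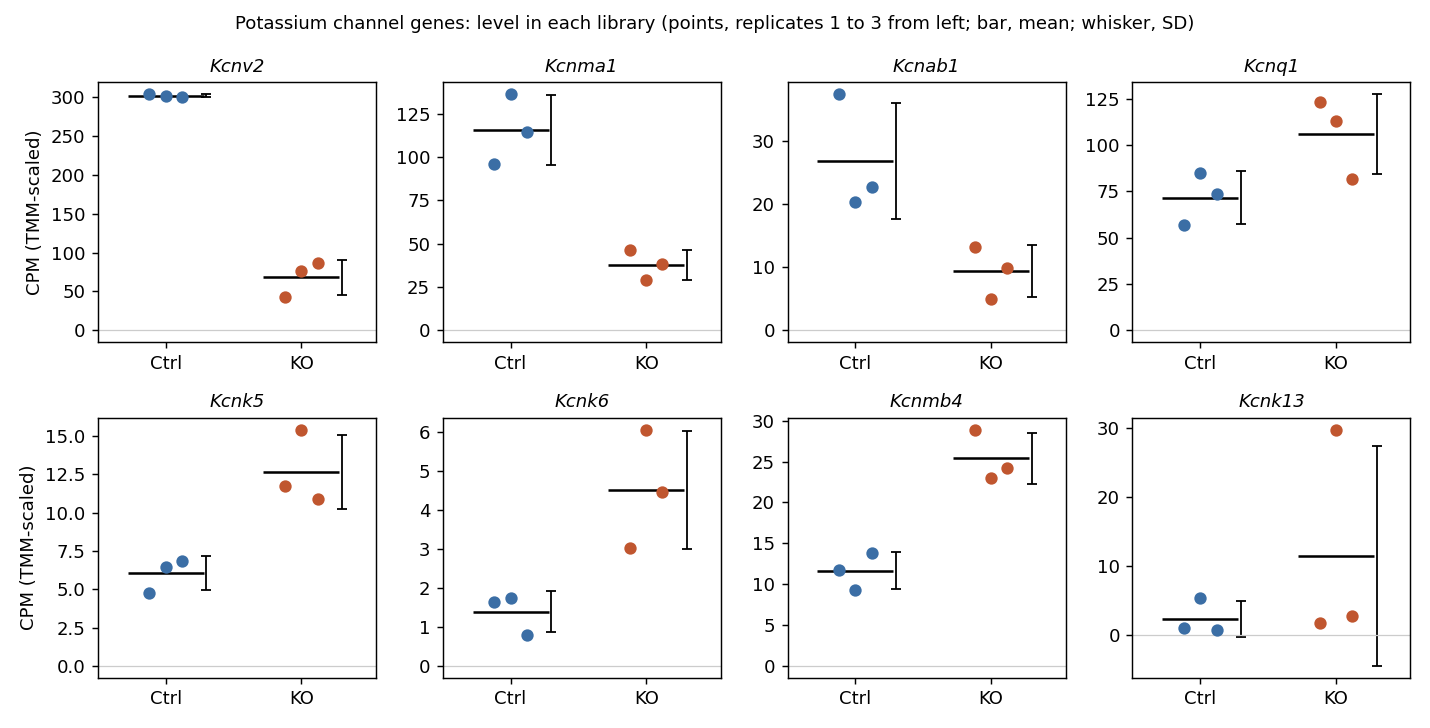
CPM of 8 members in each library, with the group mean as a bar and its SD as a whisker (n = 3), each panel on its own linear axis. Kcnv2, Kcnma1 and Kcnab1 are lower in every KO library, Kcnk5, Kcnk6 and Kcnmb4 higher, Kcnq1 overlaps, and Kcnk13 stands out in KO 2 alone at 29.8 CPM.

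Beta subunits tune the BK channel, and of the 4 listed Kcnmb4, the form of neurons, passed as higher (25% of the 4, against 10.3% of all genes called). Kcnmb4 (NM_021452, chromosome 10, 116417861 to 116473859, GRCm38.p6) held 11.8, 9.33 and 13.8 CPM in Ctrl 1, 2 and 3, against 28.9, 23.0 and 24.3 CPM in KO 1, 2 and 3. All KO libraries exceeded all Ctrl libraries, with a mean 2.18-fold higher (11.6 ± 2.25 against 25.4 ± 3.13 CPM, SD, n = 3, log2 fold change 1.13, SE 0.286, edgeR adjusted p = 0.0454). Its antisense RNA Kcnmb4os2 (NR_130644, chromosome 10, 116473163 to 116474987) passed too, from 3.55, 2.06 and 4.17 CPM in Ctrl to 10.4, 10.8 and 12.2 CPM in KO (1.77, SE 0.383, edgeR adjusted p = 0.0310). Kcnmb4os1 (NR_028107, chromosome 10, 116418121 to 116421235) held 2.49, 2.02 and 3.91 CPM in Ctrl, against 9.49, 7.17 and 6.65 CPM in KO (1.47, SE 0.410, edgeR adjusted p = 0.0575). Without Ctrl 1, Ctrl 2, Ctrl 3, KO 2 or KO 3 neither Kcnmb4 nor Kcnmb4os2 passed, and Kcnmb4 also missed with no filter on low counts (adjusted p = 0.0541). Without 1 of these libraries the edgeR adjusted p ran from 0.0682 to 0.200 for Kcnmb4 and from 0.0617 to 0.140 for Kcnmb4os2 (0.00289 to 0.200 and 1.96e-04 to 0.140 over all 13 alternatives).

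The Kcnmb4 entry is not separate from either antisense entry, because the library preparation does not mark the strand and it shares bases with each. The antisense entries share no bases with each other. The stretch from chr10:116472913-116473212 (plus strand, GRCm38.p6, RefSeq) is printed to show bases that Kcnmb4 and Kcnmb4os2 both hold. Kcnmb4os2 begins at 116473163, and the bases before it lie in Kcnmb4 alone. The 27 capitals at the end, from 116473186, lie in Kcnmb4os2 and, on the other strand, in a coding exon of Kcnmb4.
Kcnmb4 with the start of Kcnmb4os2: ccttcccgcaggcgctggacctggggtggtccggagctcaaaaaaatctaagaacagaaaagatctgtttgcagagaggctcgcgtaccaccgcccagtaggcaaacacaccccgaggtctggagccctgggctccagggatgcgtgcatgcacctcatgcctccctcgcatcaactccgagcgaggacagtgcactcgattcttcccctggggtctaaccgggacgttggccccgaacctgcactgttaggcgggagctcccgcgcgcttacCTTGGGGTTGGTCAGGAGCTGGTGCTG
Kcnmb4os1 lies wholly inside the Kcnmb4 span and Kcnmb4os2 in part, running past the start of Kcnmb4. With the reads of Kcnmb4os1 taken off, Kcnmb4 kept 9.29, 7.30 and 9.91 CPM in Ctrl 1, 2 and 3, against 19.4, 15.8 and 17.6 CPM in KO 1, 2 and 3, which do not overlap. With those of both antisense entries taken off it kept 5.74, 5.24 and 5.74 CPM in Ctrl, against 9.02, 5.06 and 5.38 CPM in KO, which do overlap. The first remainder still holds any reads of Kcnmb4os2 that lie inside Kcnmb4. The second removes too much where reads of Kcnmb4os2 lie outside Kcnmb4 or belong to Kcnmb4, so it is a lower limit. Endothelial markers were higher in the same libraries, and relative to them Kcnmb4 overlapped between groups, at −3.53, −4.44 and −3.89 log2 units in Ctrl and −3.97, −4.43 and −3.96 in KO.

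**Figure D5:**
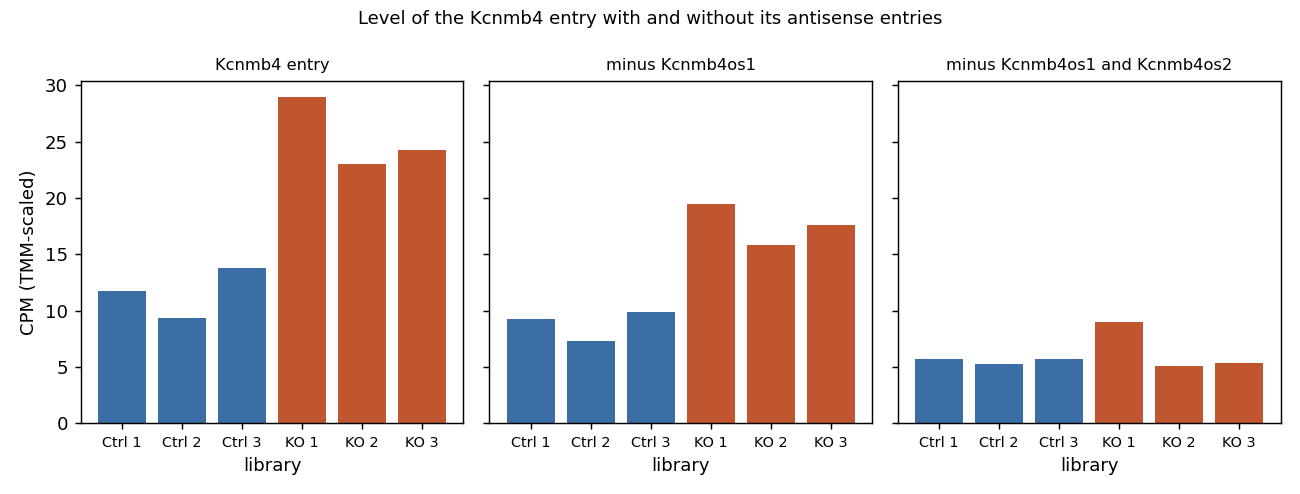
Bars give CPM of the Kcnmb4 entry in each library (left), less Kcnmb4os1 (middle) and less both antisense entries (right), Ctrl in blue and KO in orange. The groups are apart in the left and middle panels and overlap in the right one, where KO 2 and KO 3 stand at 5.06 and 5.38 CPM.

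Kcnmb1, the beta subunit of smooth muscle, stayed between 0.410 and 2.55 CPM (log2 fold change 1.03, SE 0.766, edgeR adjusted p = 0.397). It lies inside Kcnip1, so the counts of both are uncertain.

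Inward rectifiers gave 0 calls among 12 tested of 14 members, with 1 at an unadjusted p under 0.05 (8.33%, against 30.5% of all genes) and 0 called by DESeq2 or limma-voom. Of all genes edgeR called 10.3%, DESeq2 22.1% and limma-voom 11.8%. Kcnj2 encodes Kir2.1, through which capillary endothelium senses potassium. It held 5.02, 10.7 and 8.34 CPM in Ctrl 1, 2 and 3, against 26.7, 9.84 and 6.44 CPM in KO 1, 2 and 3. KO 1 was the one library above the Ctrl range (log2 fold change 0.83, SE 0.566, edgeR adjusted p = 0.353), and without it the estimate was 0.096. Kcne3 and Kcnq5, an M-type voltage-gated channel, were likewise highest in KO 1, Kcnq5 at 61.8 CPM there against 29.8 to 35.4 CPM in the other 5 libraries. Kcnj9, a subunit of G-protein-gated channels of neurons, had 7.01, 2.15 and 3.19 CPM in Ctrl, against 0.118, 1.43 and 1.23 CPM in KO, where KO 1 rests on 3 counts. The groups were apart (−2.14, SE 0.862, edgeR adjusted p = 0.140). Kcnj10, the Kir4.1 channel of Müller glia, was at 2.22, 2.27 and 3.06 CPM in Ctrl, against 1.57, 2.27 and 1.47 CPM in KO (−0.50, SE 0.473, edgeR adjusted p = 0.503). Markers of glia had 4 of 12 higher and 0 lower in KO. They summed to 2331 to 3014 CPM in Ctrl, against 2902, 17379 and 5941 CPM in KO 1, 2 and 3, so KO 1 lay inside the Ctrl range. Kcnj13, a channel of the pigment epithelium, stayed at or below 1.57 CPM and was at 0 in KO 1 (−0.55, SE 1.13, edgeR adjusted p = 0.772, and 0.094 without KO 1).

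Tandem-pore leak channels had no call by edgeR and estimates mostly above 0, with 22.2% below 0, against 49.0% of all genes. Of 11 members 9 were tested, 7 estimates were above 0 (median 1.45) and 0 passed edgeR's test, while 3 had an unadjusted p under 0.05, DESeq2 called 2 and limma-voom 0. These are 33.3% and 22.2% of the 9 for the unadjusted p and DESeq2, near the 30.5% and 22.1% of all genes. EdgeR and limma-voom called 10.3% and 11.8% of all genes. The median is the estimate of Kcnk10, which had a mean of 0.449 CPM (SE 0.858). Kcnk7 and Kcnk12, also above 0, had means of 1.28 and 0.649 CPM. Kcnk5, the acid-sensitive TASK-2 channel, held 4.78, 6.48 and 6.84 CPM in Ctrl 1, 2 and 3, against 11.7, 15.4 and 10.9 CPM in KO 1, 2 and 3. All KO libraries were above all Ctrl libraries (log2 fold change 1.07, SE 0.331, edgeR adjusted p = 0.0737). Kcnk6, or TWIK-2, had 1.64, 1.73 and 0.782 CPM in Ctrl, against 3.02, 6.05 and 4.46 CPM in KO, again apart (1.69, SE 0.515, edgeR adjusted p = 0.0715). Both passed with DESeq2 (adjusted p = 0.0166 and 0.0124) and by edgeR without KO 1 (adjusted p = 0.0320 and 0.0222), in ranges of 0.0166 to 0.216 and 0.0124 to 0.230. Endothelial markers moved with both. Relative to them Kcnk5 was at −4.82, −4.96 and −4.90 log2 units in Ctrl and −5.26, −5.01 and −5.11 in KO, lower in every KO library, and Kcnk6 overlapped between groups.

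Kcnk13, or THIK-1, is the leak channel of microglia. It held 0.991, 5.41 and 0.717 CPM in Ctrl 1, 2 and 3, against 1.76, 29.8 and 2.81 CPM in KO 1, 2 and 3. The highest library of each group was the one with the most microglial marker RNA, Ctrl 2 and KO 2. KO 1 had the least of that RNA, though its Kcnk13 level was above those of Ctrl 1 and Ctrl 3. Relative to microglial markers Kcnk13 stood at −5.97, −4.01 and −3.90 log2 units in Ctrl, against −1.59, −4.36 and −5.20 in KO. The log2 fold change of 2.26 (SE 1.19, edgeR adjusted p = 0.236) was −0.028 without KO 2. Kcnk2, the stretch-sensitive TREK-1, stood at 34.6, 28.3 and 32.8 CPM in Ctrl, against 52.0, 23.6 and 31.1 CPM in KO (0.16, SE 0.332, edgeR adjusted p = 0.784), and at −0.16 without KO 1. Kcnk7, which overlaps Ehbp1l1, had 1.03, 0.124 and 0.391 CPM in Ctrl, against 2.94, 2.23 and 0.960 CPM in KO (1.96, SE 0.844, edgeR adjusted p = 0.162).

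Many potassium channel genes are long, and long genes differed from short ones across the table. Over all genes tested the median log2 fold change was −0.19 for the 2265 genes with a span over 100000 bases and 0.06 for the other 13952. Among the members it was −0.44 for 22 and −0.16 for 55. Kcnma1 belongs to the long set and Kcnv2 to the short one. The part of span in these values was not tested.

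Proteins that work beside the channels were read from a separate list of 29 genes, 27 of them tested: hyperpolarisation-activated Hcn channels, sodium pumps, chloride cotransporters, sulfonylurea receptors and anchors. By edgeR 3 of the 27 were higher and 4 lower in KO, or 25.9%, against 10.3% of all genes. DESeq2 called 8 of the 27, limma-voom 6 and edgeR without KO 1 called 8. These settings called 22.1%, 11.8% and 29.7% of all genes. Hcn2, a pacemaker channel, was higher, from 0.991, 1.16 and 1.04 CPM in Ctrl 1, 2 and 3 to 2.82, 6.33 and 7.23 CPM in KO 1, 2 and 3 (log2 fold change 2.36, SE 0.504, edgeR adjusted p = 0.0302). Atp1b2, a sodium pump beta subunit of photoreceptors and glia, was lower, with 2197, 1435 and 1489 CPM in Ctrl, against 317, 534 and 893 CPM in KO (−1.55, SE 0.403, edgeR adjusted p = 0.0485). Slc12a4, a potassium-chloride cotransporter, was higher, with 27.4, 29.4 and 27.8 CPM in Ctrl, against 53.9, 66.9 and 46.2 CPM in KO (0.98, SE 0.245, edgeR adjusted p = 0.0440). Dtna, of the dystrophin complex that holds Kir4.1 in glial endfeet, was lower, with 24.6, 32.1 and 26.5 CPM in Ctrl, against 10.5, 8.24 and 8.60 CPM in KO (−1.60, SE 0.279, edgeR adjusted p = 0.0228). In all 4, which were picked among partners past the threshold, the groups did not overlap. The same held for 13 of the 27 tested partners (48.1%) and for 37.9% of all genes. None of these 4 passed without Ctrl 1, Ctrl 2, Ctrl 3 or KO 2 (edgeR adjusted p of 0.0801 to 0.185). Hcn2 and Slc12a4 also missed without KO 3, Hcn2 with limma-voom, Slc12a4 and Atp1b2 with no filter, and Atp1b2 with the other scalings. The markers of photoreceptors and endothelium moved in the same libraries, and their part in these values was not tested.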

How the data were processed

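The authors deposited raw counts per RefSeq transcript entry, normalized counts (a signal: the count over 1 size factor per library), RPKM, and their DESeq2 log2 fold change, Wald statistic (a score), p-value and adjusted p-value, per the file headers. Per the submitters' processing notes, Trimmomatic 0.36, STAR, DESeq2, edgeR, deepTools and mm10 were used. The counting tool is not given in the sources used here. Per the labels' protocols, full-length cDNA was amplified from polyadenylated RNA. One Ctrl count column carries another number and was taken as Ctrl 3, because its ratio to the normalized column of Ctrl 3 is constant. The given length lay within 2% of the genomic span for 80.4% of genes, so that length takes in introns. Whether the counts do is not given, and the subtractions of antisense reads rest on it where an antisense entry lies in an intron. The RPKM values were not used.

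The longest entry of each symbol was kept (ties by count). KO and Ctrl were compared on counts by edgeR 4.0.16 (quasi-likelihood, TMM, filterByExpr, Benjamini-Hochberg adjustment over 16217 genes, two-sided, 0.05) in R 4.3.3, after tests on simulated data. DESeq2 1.42.0, limma 3.58.1 voom, other scalings, no filter, another entry per symbol, a replicate block and leaving out each library were alternatives. The standard error is the log2 fold change over the square root of F. Log2 CPM for marker means has a prior count of 2. Coordinates are RefSeq, GRCm38.p6. Of the members 23 overlap another gene of the table.

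Members and lists were chosen with earlier results of these data known. Named were members past the threshold, a list of 15 with a known place in retina or vessel, the 6 with the highest mean CPM, and partners past the threshold. Other members, those with an unadjusted p under 0.05 among them, were named after their values were seen, as were the subtractions of antisense reads and the values relative to markers. With 3 against 3, an exact permutation test cannot go below 0.1. Some members and partners that the rule names are not reported here, though counts and sums include them.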

Additional observations from a re-analysis of the deposited data

How the results depend on the processing

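Alternatives moved the counts of calls more than the directions. Of all genes, DESeq2 called 3556, the replicate block 1, and leaving out a library 0 to 4927 (against 1668). Of the members, DESeq2 called 11, the replicate block 0 (16 at an unadjusted p under 0.05), leaving out a library 0 to 11, and 2 were left once members overlapping another gene were set aside (against 4). The labels name a different pup for each number and same-numbered libraries do not deviate together (correlations −0.39, 0.07 and −0.26), so the numbers do not pair the samples. The median over members ranged from −0.28 to 0.023 when a library was left out. The sign turned for Kcne1l with limma-voom (−0.044), the replicate block (−0.025) and without 1 library (range −0.38 to 0.38). It also turned when 1 library was left out for Kcnj13 (−0.90 to 0.094), Kcnk13 (−0.028 to 3.72), Kcnk2 (−0.16 to 0.40) and Kcnn3 (−0.89 to 0.35). Without 1 library the estimate moved by over 1.5 times, with no turn of sign, for Kcna3 (−0.36 without Ctrl 1), Kcnab2 (−0.24 without KO 1), Kcne3 (0.32 without KO 1), Kcnj10 (−0.33 without KO 3), Kcnk7 (3.02 without Ctrl 1), Kcnmb1 (1.78 without Ctrl 3, 0.62 without KO 1), Kcnq1ot1 (−0.87 without Ctrl 1, −0.34 without Ctrl 2), Kcnb2 (−0.74 without KO 2) and those given with their values above. The cause was not tested. Over the single genes followed and their alternatives 414 values kept direction and side of the threshold, 66 lost the call, 16 gained it and 11 turned sign. Depth limits most the 42 tested members with a mean under 5 CPM.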
